A study of Mus musculus with 49 samples.

Results

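Max, Mapk9, Zfp365, Tsnax, Zfp280b, Zfp866, Pdrg1 and Rap1gds1 are 8 genes in which bigenic and monogenic mice stood apart tightly in neocortical RNA. They were picked by name from 45252 genes for that separation, so their genotype difference is a description and not a finding. All 8 were among the 18220 genes that passed a filter on low counts and were tested. Bulk RNA of 49 mice was sequenced, 1 library per mouse, to ask whether immunization against TDP-43 changes cortical gene expression in a mouse model of TDP-43 proteinopathy. The 32 bigenic mice, called rNLS8, are heterozygous for NEFH-tTA, a neurofilament heavy chain promoter driving the tetracycline transactivator in neurons, and tetO-hTDP-43ΔNLS, a human TDP-43 gene without its nuclear localization signal. The 17 monogenic ctrl-PBS mice carry 1 tetO-hTDP-43ΔNLS allele only, so the genotypes differ in the transactivator as well as in the expression of the transgene. All mice were of mixed C57BL/6J x C3H/HeJ background, were taken off doxycycline at 25.5 weeks of age and were killed 3 weeks later, at 28.5 weeks. From 8 weeks of age they received PBS or 40 µg of peptide 5 times before and 1 time after induction. PBS was given to the ctrl-PBS mice (10 females, 7 males) and to 10 rNLS8 mice called TDP-PBS (4 females, 6 males). The other 22 rNLS8 mice received peptides 10 and 12 (TDP-10+12, 6 females and 4 males) or peptide 15 (TDP-15, 5 females and 7 males), all from the C-terminal part of TDP-43.

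TDP-43 is a nuclear RNA-binding protein that binds UG-rich stretches of RNA and controls splicing and stability of many neuronal transcripts. In amyotrophic lateral sclerosis and frontotemporal dementia it leaves the nucleus of affected neurons and aggregates in the cytoplasm, a state that the transgene is built to imitate. The 8 genes do not form 1 known pathway. MAX is the obligate partner of MYC and of the MXD and MNT repressors, with which it binds E-boxes in DNA. PDRG1 is a small prefoldin-like subunit of a cochaperone complex, ZFP280B and ZFP866 are zinc finger proteins, and ZFP365 is a brain-enriched coiled-coil zinc finger protein that binds DISC1. MAPK9 is the stress-activated kinase JNK2, TSNAX is the partner of translin in an RNA-processing nuclease, and RAP1GDS1, also called SmgGDS, escorts small GTPases.

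Start site sequences of 4 of the genes are shown because they hold the letters searched for in the promoters and come from 2 genes that were higher and 2 that were lower in rNLS8 mice. Each runs from 250 bases before to 50 bases after a start annotated in RefSeq (GRCm38.p6), read 5′ to 3′ on the gene's strand. For Max, Zfp280b and Mapk9 this start lies inside the gene positions given below and not at their outer end. Most of the Zfp280b window thus lies within the gene. Capitals mark an E-box, spelled CACGTG. They also mark a GC box, spelled GGGCGG on the one strand or the other. The third motif in capitals is a CCAAT box, on either strand. The last one is a TATA box, spelled TATAAA on either strand.
Max, chr12:76962199-76962498, minus strand: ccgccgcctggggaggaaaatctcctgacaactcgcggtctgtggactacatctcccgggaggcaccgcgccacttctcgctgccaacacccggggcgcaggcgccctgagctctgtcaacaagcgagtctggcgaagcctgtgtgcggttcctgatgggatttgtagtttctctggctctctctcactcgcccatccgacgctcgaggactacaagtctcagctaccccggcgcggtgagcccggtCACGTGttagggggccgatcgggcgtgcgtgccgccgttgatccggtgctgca
Zfp280b, chr10:76032362-76032661, plus strand: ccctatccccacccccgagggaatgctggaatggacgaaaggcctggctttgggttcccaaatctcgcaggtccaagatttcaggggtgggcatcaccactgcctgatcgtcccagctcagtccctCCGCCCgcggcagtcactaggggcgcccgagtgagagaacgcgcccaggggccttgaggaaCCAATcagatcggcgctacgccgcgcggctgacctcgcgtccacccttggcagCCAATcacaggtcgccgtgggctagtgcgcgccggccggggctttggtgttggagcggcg
Mapk9, chr11:49846501-49846800, plus strand: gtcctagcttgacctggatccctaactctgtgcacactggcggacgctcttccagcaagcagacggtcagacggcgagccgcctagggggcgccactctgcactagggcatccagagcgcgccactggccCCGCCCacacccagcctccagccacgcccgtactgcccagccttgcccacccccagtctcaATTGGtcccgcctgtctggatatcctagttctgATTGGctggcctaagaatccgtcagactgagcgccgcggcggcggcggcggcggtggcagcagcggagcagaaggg
Zfp365, chr10:67912613-67912912, minus strand: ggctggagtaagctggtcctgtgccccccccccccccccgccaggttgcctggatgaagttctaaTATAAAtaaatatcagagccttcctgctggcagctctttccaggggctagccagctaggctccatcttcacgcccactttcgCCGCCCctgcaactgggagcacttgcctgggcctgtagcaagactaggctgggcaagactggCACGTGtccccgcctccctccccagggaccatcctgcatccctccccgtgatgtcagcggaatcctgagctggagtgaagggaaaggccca

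A RefSeq start sequence was matched for 6 of the 8 genes, and the 2 without an entry were Tsnax and Rap1gds1. An E-box, the letters bound by MAX with its partners, was found in the windows of Max and Zfp365, which moved in opposite directions, against 9.39% of the 13340 windows of tested genes. Of the 6 windows 5 held a GC box and 4 a CCAAT box, against 59.0% and 37.9% of all. A cAMP response element (TGACGTCA) was in 0 of the 6 and in 2.92% of all. The TATA letters were in the window of Zfp365 and in 7.79% of all. Both strands were searched. These matches describe letters in 300 bases and do not show that a factor binds there.

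Total counts per mouse lay between 17775738 and 21033608, and levels are given as counts relative to the library total (CPM) scaled by edgeR's TMM factors. The counting error of a single library, averaged over the mice of a group, ran from 1.03% to 7.12% across genes and groups. In each gene and group it was below the spread between mice (coefficient of variation 4.55% to 21.0%). Mouse Tardbp lay at 119.5, 147 and 160.2 CPM (lowest, median, highest) in ctrl-PBS and at 91.8, 120.4 and 142 CPM in rNLS8 mice, and its values overlapped between genotypes. Its level was still lower in TDP-PBS than in ctrl-PBS (log2 fold change -0.30, 95% confidence interval -0.40 to -0.20, adjusted p = 1.54e-06 in edgeR). In TDP-10+12 and TDP-15 the log2 fold change was -0.24 and -0.27. Whether reads of the human transgene entered the Tardbp count is not given in the sources used here. In bulk tissue, fewer cells of a type and less RNA per cell cannot be told apart. One TDP-10+12 male, mouse 301, stood apart and is named beside the results it touches. Among the 32 rNLS8 mice it was highest in Max, Zfp280b, Zfp866 and Pdrg1, in Tardbp (142 CPM), in Prnp, the prion protein gene (1672 CPM against 802 to 1127 in the others), and in the astrocyte gene Gfap (1132 CPM against 181 to 592).

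Max, which had the largest difference between genotypes in units of the SD within genotypes, was more abundant in every rNLS8 mouse than in every ctrl-PBS mouse. The gene lies on the minus strand (chr12:76937269-76962323, GRCm38). In ctrl-PBS mice the lowest, median and highest Max levels were 58.5, 67.2 and 79.4 CPM. The corresponding values were 157, 186 and 197 CPM in TDP-PBS, 144, 184 and 215 CPM in TDP-10+12, and 152, 192 and 206 CPM in TDP-15. The rNLS8 groups overlapped each other almost fully, and none reached down to the controls. The highest value, 215 CPM, was that of mouse 301. Log2 fold changes against ctrl-PBS were 1.44 (SE 0.05) in TDP-PBS, 1.44 in TDP-10+12 and 1.47 in TDP-15.

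Zfp280b (chr10:76032401-76042970, plus strand) showed the same arrangement. Its level was 17.5, 20.9 and 25.2 CPM (lowest, median, highest) in ctrl-PBS. TDP-PBS mice ranged from 42.6 over 49.5 to 55.1 CPM, TDP-10+12 mice from 41.1 over 47.6 to 61.6 CPM, and TDP-15 mice from 43.1 over 47.5 to 57.0 CPM. Groups of the 2 genotypes did not overlap, and the highest value belonged to mouse 301. The log2 fold change was 1.22 (SE 0.05) in TDP-PBS, 1.20 in TDP-10+12 and 1.22 in TDP-15.

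Zfp866 (chr8:69761324-69774911, minus strand) was at 13.9, 15.5 and 17.2 CPM in ctrl-PBS. Its lowest, median and highest levels were 25.7, 30.4 and 35.1 CPM in TDP-PBS, 27.8, 30.5 and 41.0 CPM in TDP-10+12, and 28.6, 31.4 and 35.2 CPM in TDP-15. Again no rNLS8 mouse overlapped the controls, and mouse 301 was the top value. Log2 fold changes were 0.99 (SE 0.05), 1.01 and 1.03 in the same order of groups. Of the 100-base stretches of its longest coding transcript 10.3% are shared with the annotated gene Gm20422, so its counts are uncertain to that extent.

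Pdrg1 (chr2:153008890-153016019, minus strand) had the largest fold of the 8 and the largest pooled SD of log2 CPM within genotypes (0.23). In ctrl-PBS it lay at 7.72, 10.3 and 14.5 CPM. It reached 24.1, 33.8 and 39.8 CPM in TDP-PBS, 24.6, 35.7 and 49.2 CPM in TDP-10+12, and 27.03, 35.5 and 40.6 CPM in TDP-15. The lowest rNLS8 mouse was still above the highest control, and the highest value, 49.2 CPM, again came from mouse 301. Log2 fold changes were 1.68 (SE 0.09) in TDP-PBS, 1.83 in TDP-10+12 and 1.74 in TDP-15.

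Mapk9, the JNK2 gene (chr11:49846728-49886421, plus strand), came second to Max in SD units and was less abundant in rNLS8 mice. Control mice ranged from 212 over 234 to 258 CPM. TDP-PBS mice lay at 86.5, 99.6 and 114 CPM, TDP-10+12 mice at 96.8, 106 and 116 CPM, and TDP-15 mice at 81.1, 102 and 114 CPM. The lowest control was far above the highest rNLS8 mouse, mouse 242 of TDP-10+12. Mapk9 differed from ctrl-PBS by a log2 fold change of -1.22 (SE 0.04) in TDP-PBS, -1.15 in TDP-10+12 and -1.21 in TDP-15.

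Zfp365 (chr10:67886105-67912662, minus strand) was at 416, 492.7 and 578 CPM in ctrl-PBS. The values were 165, 196 and 235 CPM in TDP-PBS, 170.2, 202 and 233 CPM in TDP-10+12, and 165, 194 and 224 CPM in TDP-15. No values of the 2 genotypes overlapped, and here the lowest TDP-10+12 value came from mouse 301. The log2 fold change of Zfp365 was -1.30 (SE 0.06) in TDP-PBS, -1.27 in TDP-10+12 and -1.34 in TDP-15.

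Tsnax (chr8:125013041-125034208, plus strand) ranged from 74.5 over 84.9 to 98.4 CPM in ctrl-PBS. It was at 39.7, 43.4 and 52.0 CPM in TDP-PBS, 41.2, 46.7 and 51.4 CPM in TDP-10+12, and 40.3, 44.4 and 49.8 CPM in TDP-15. Every rNLS8 mouse was below every control. Log2 fold changes of Tsnax were -0.93 (SE 0.05), -0.88 and -0.93 in this order. Of its 100-base stretches 2.79% are shared with the annotated gene Gm8010.

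Rap1gds1 (chr3:138925897-139075228, minus strand) had the smallest fold of the 8 and the smallest pooled SD of log2 CPM within genotypes (0.089), although within the controls alone the SD of Mapk9 was smaller (0.082 against 0.092). Control mice lay at 261, 284 and 329 CPM. The rNLS8 values were 160.1, 165 and 184 CPM in TDP-PBS, 144, 166 and 185 CPM in TDP-10+12, and 155, 168 and 188 CPM in TDP-15. The genotypes were separated without overlap. Rap1gds1 had log2 fold changes of -0.77 (SE 0.04), -0.80 and -0.75 against ctrl-PBS.

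**Figure D1:**
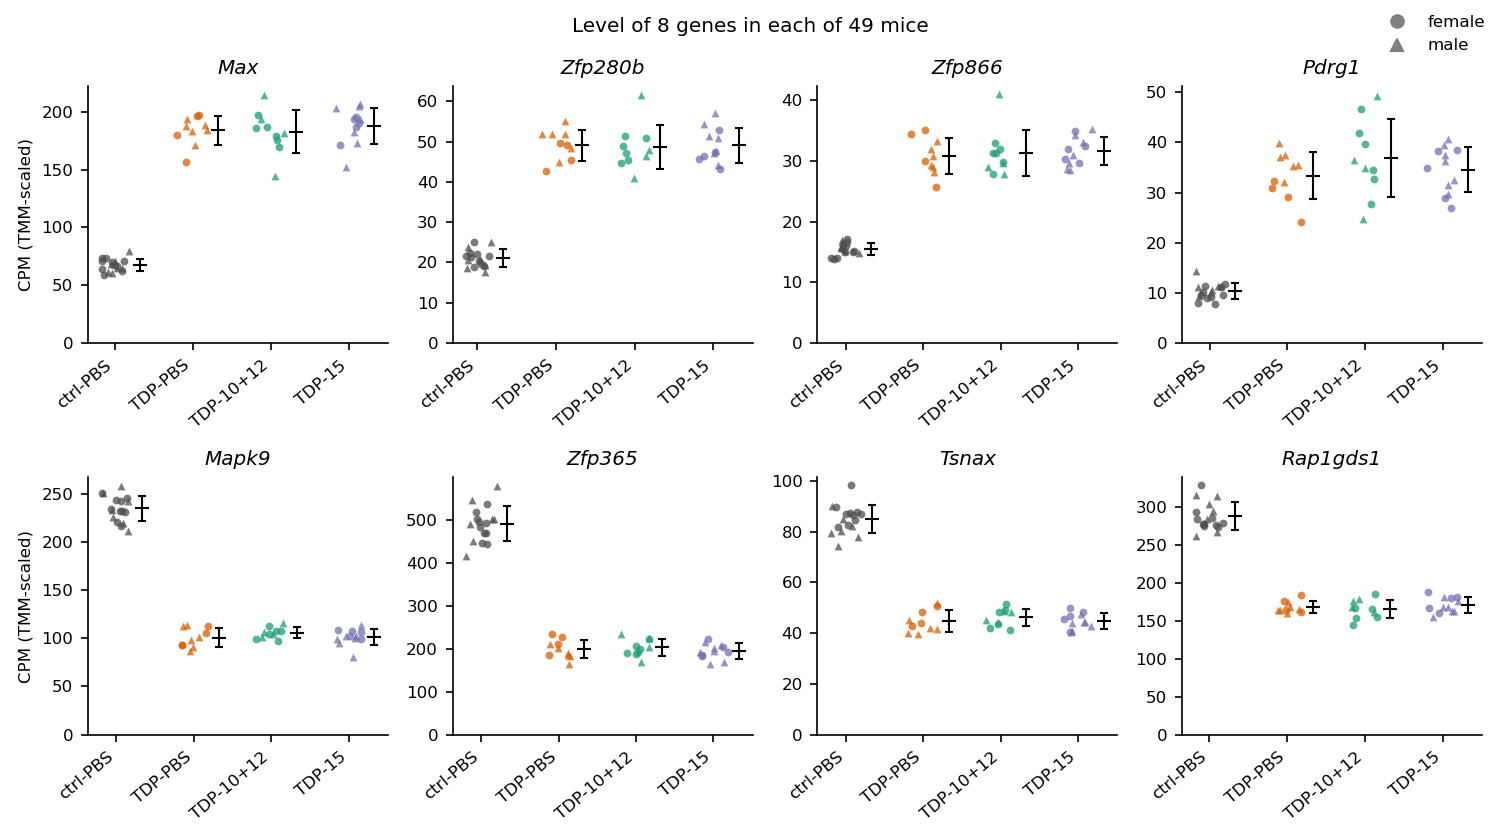
Level of each of the 8 genes (CPM, linear axis from 0) in each mouse by group. Circles are females, triangles are males, and the bar beside each group is the mean with its SD. In all 8 panels the 32 rNLS8 mice lie on 1 side of the 17 ctrl-PBS mice, and the 3 rNLS8 groups overlap each other.

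By their selection all 8 genes were called at an adjusted p-value under 0.05 in each comparison with ctrl-PBS, where 43.5%, 40.8% and 46.9% of all tested genes were called in TDP-PBS, TDP-10+12 and TDP-15, and nothing is read from that count. The 3 comparisons share the ctrl-PBS mice. A gap was computed as the distance in log2 CPM between the nearest mice of the 2 genotypes, and 512 tested genes (2.81%) had a gap above 0. The gaps of the 8 genes ran from 0.48 in Rap1gds1 to 0.86 in Max and Mapk9 and ranked between 7 and 26. The genes with the widest gaps were Cxcl10 (1.28), Cst7 (1.27), Ccl5 (1.14), C4b (1.10) and Ano3 (0.95), of which the first 4 are chemokine, microglial and complement genes. In units of the pooled SD within genotypes, the mean difference was 11.9 in Max, 11.1 in Mapk9, 9.81 in Zfp365, 9.03 in Zfp280b, 8.67 in Rap1gds1, 8.45 in Tsnax, 8.25 in Zfp866 and 7.51 in Pdrg1. These values rank 1 to 6, 8 and 13 among all tested genes. Above Pdrg1 stood 5 genes that were not picked, of which the nearest to the top were Camkk2 (8.38, rank 7) and Sult4a1 (7.82, rank 9), so the 8 are not the first 8 on either scale. Cxcl10 by contrast ranked 62 on this scale (5.85), with a far larger mean difference (log2 4.83) and a far larger SD (0.83 against 0.12 in Max).

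**Figure D2:**
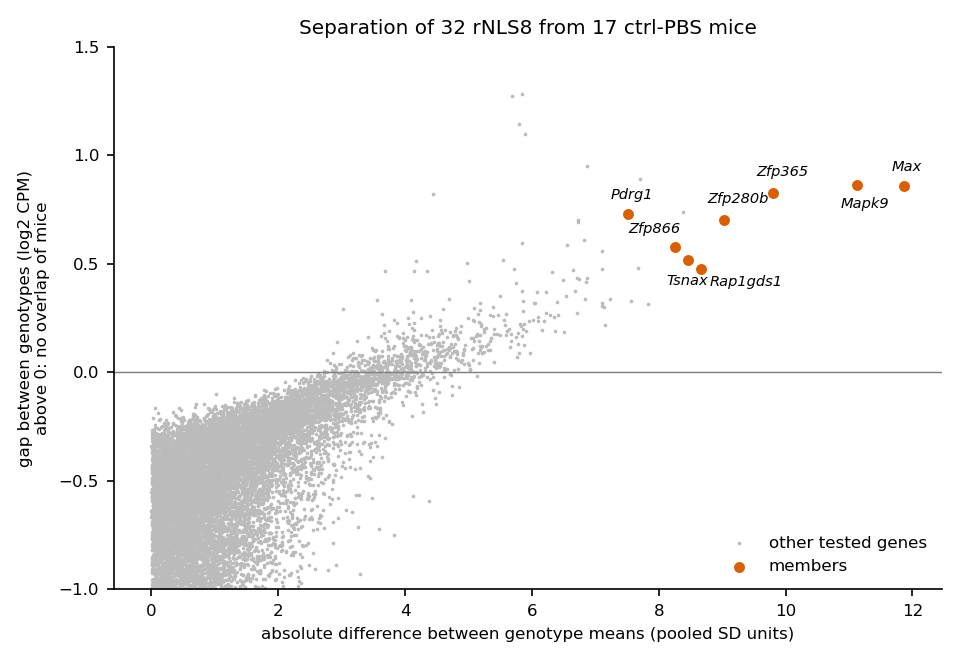
Gap between genotypes (log2 CPM, vertical axis) against the absolute difference between genotype means in pooled SD units (horizontal axis), for every tested gene. Orange points are the 8 genes, and a gap above 0 means that no rNLS8 mouse overlaps a control. The axis ends at -1, and 5616 genes lie below it. The 8 genes are toward the right end, from 7.51 in Pdrg1 to 11.9 in Max, with 5 other genes to the right of Pdrg1.

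Small variance relative to other genes was not shared by all 8. The biological coefficient of variation estimated by edgeR was 6.85% in Rap1gds1, 7.44% in Tsnax, 7.64% in Mapk9, 8.38% in Zfp866, 8.72% in Max, 9.10% in Zfp280b, 9.50% in Zfp365 and 15.1% in Pdrg1. Among genes within 0.5 log2 CPM of each, Rap1gds1 stood at percentile 13.9 of this dispersion and Pdrg1 at percentile 87.3. Max stood at percentile 49.04, close to the middle of 1089 such genes.

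Comparisons between rNLS8 groups ask whether immunization moved the genes. The genes were picked for tight separation, and a difference between rNLS8 groups adds to the spread among the bigenic mice, so a gene moved by immunization was less likely to be picked and the low counts that follow are in part set by that choice. None of the 8 was called in TDP-10+12 against TDP-PBS, TDP-15 against TDP-PBS or TDP-10+12 against TDP-15 (two-sided quasi-likelihood test in edgeR), and 0 of 8 reached an unadjusted p-value of 0.05 in any of them. Among all tested genes 0.0% were called in each, while 5.23%, 3.03% and 6.83% reached the unadjusted value. DESeq2 also called 0 of the 8 genes in each comparison. The largest difference was that of Pdrg1 in TDP-10+12 against TDP-PBS, at a log2 fold change of 0.14 (95% confidence interval -0.05 to 0.34, adjusted p = 0.959, edgeR). Without mouse 301 it was 0.09 (-0.10 to 0.28, adjusted p = 0.965, edgeR). Max differed by -0.01 (-0.12 to 0.10) in that comparison and by 0.03 (-0.08 to 0.14) in TDP-15 against TDP-PBS. For Mapk9 the differences were 0.07 (-0.03 to 0.17) and 0.01 (-0.08 to 0.11). The intervals of all 8 genes in the 3 comparisons lay between -0.15 and 0.34 on the log2 scale, where the differences between genotypes were 0.75 or more in size. Shifts inside the interval of a gene are not excluded by these data.

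**Figure D3:**
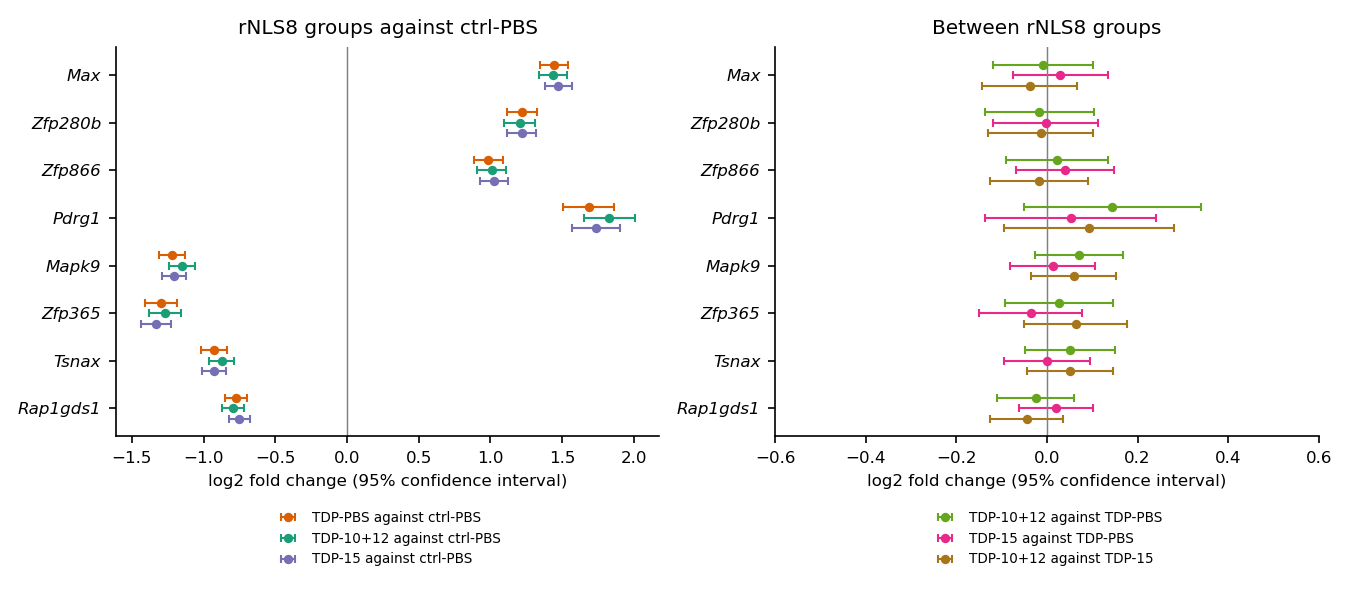
Log2 fold change of each gene with its 95% confidence interval from edgeR. The left panel gives the 3 rNLS8 groups against ctrl-PBS, and the right panel, on a narrower axis, the 3 comparisons between rNLS8 groups. Left-hand values range from -1.34 to 1.83 and right-hand values from -0.05 to 0.14.

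To place each mouse, the level of each gene in log2 CPM was expressed as a percent of the distance from the ctrl-PBS mean (0%) to the rNLS8 mean (100%), and the median over the 8 genes was taken. Control mice lay between -5.95% and 8.51%. The lowest, median and highest positions were 88.0%, 100.8% and 108% in TDP-PBS, 86.6%, 98.2% and 116% in TDP-10+12, and 90.3%, 102% and 109.7% in TDP-15. The groups of rNLS8 mice overlapped over nearly their whole range, with the extremes in TDP-10+12 (mouse 242 lowest and mouse 301 highest). No test was run on this score, since its members were chosen on the same mice.

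A sex difference likewise adds to the spread within a genotype, so the comparison of the sexes is not free of the choice of the genes either. In females against males 0 of the 8 were called (0.0933% of all tested genes), and 2 reached an unadjusted p-value of 0.05 (3.97% of all). Tsnax was higher in females by a log2 fold change of 0.07 (95% confidence interval 0.01 to 0.13, adjusted p = 0.999 in edgeR), with means of 87.3 CPM in 10 control females and 81.3 CPM in 7 control males. Pdrg1 was lower in females by 0.14 on the log2 scale (interval -0.27 to -0.02, adjusted p = 0.999), with 9.77 and 11.2 CPM in control females and males. Without mouse 301 the difference in Pdrg1 was -0.12 (interval -0.25 to 0.01), and Tsnax alone reached the unadjusted value. The genotype by sex interaction was called for 0 of 8 genes, and 0 of 8 reached an unadjusted p-value of 0.05 (0.0% and 3.33% of all tested genes).

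Markers of cell types were set beside these values, since the genotypes differed in them. Over all tested genes 21.9% were higher and 21.6% lower in TDP-PBS relative to ctrl-PBS. Counts near these shares, as in the astrocyte and the endothelial and mural lists, are not read as results. Of 14 neuron markers 11 were lower and 0 higher in TDP-PBS relative to ctrl-PBS (edgeR, adjusted p under 0.05), and their summed level was 8158 to 9992 CPM in ctrl-PBS and 6018 to 7359 CPM over the 3 rNLS8 groups, without overlap. Of 10 microglia markers 8 were higher and 0 lower, with a sum of 283 to 342 CPM in ctrl-PBS and 292 to 724 CPM in rNLS8 mice. The astrocyte list had 2 of 10 higher and 2 lower, and its sums overlapped (2738 to 3488 CPM in ctrl-PBS, 2423 to 3709 CPM in rNLS8 mice). Oligodendrocyte sums also overlapped (3551 to 6479 CPM against 3055 to 6196 CPM), with 1 of 8 markers higher. None of the markers of these 4 cell types was at 0 in a group. In the other lists 0 of 5 precursor, 0 of 6 choroid plexus and 0 of 6 striatum markers were called in TDP-PBS, 2 of 8 endothelial and mural, 4 of 5 olfactory bulb and 2 of 3 tested pituitary markers were lower, and of 3 tested T and B cell markers 1 was higher and 1 lower. Sums of choroid plexus markers reached 1706 CPM in single mice, against medians of 27.4 to 44.7 CPM in the groups. In ctrl-PBS the olfactory bulb and pituitary sums reached 112 and 127 CPM in single mice, against medians of 5.87 and 1.81 CPM. The calls in these 2 lists can thus rest on few mice, and no olfactory bulb marker was called in TDP-10+12 or TDP-15.

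Summed neuron markers were lower in rNLS8 mice by 0.38 on the log2 scale and without overlap. Dividing by them had to widen the separation of the 4 higher genes, so nothing is read from those 4. Abundant genes weigh most in the sum, such as Snap25 (means of 2679 CPM in controls and 1659 CPM in rNLS8 mice). Rbfox3, Slc17a7 and Gad2 were not called in TDP-PBS. Relative to the sum, Mapk9 and Zfp365 separated all 32 rNLS8 mice from the controls. On this ratio 2228 tested genes had no overlap between genotypes, against 512 without it. The gaps of Mapk9 and Zfp365 then ranked 186 and 49, against 7 and 9 without it. Both were picked for their separation, so nothing is read from it. Mapk9 was then lower by 0.82 on the log2 scale and Zfp365 by 0.93. For Tsnax the remaining difference was -0.53, with 30 of 32 rNLS8 mice outside the control range, and for Rap1gds1 it was -0.39, with 25 of 32 outside. The ratio was chosen after the values had been seen, and the part of the cell type markers in the levels of single genes was not tested otherwise.

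Covariation of the genes was examined within the rNLS8 mice, whose spread in each gene was limited by the choice of tightly separating genes. Log2 CPM of the 28 pairs were correlated across the 32 rNLS8 mice, with two-sided permutation tests (100000 resamples) adjusted over the 28 pairs. All 6 pairs of the 4 higher genes had a positive Pearson r (median 0.31), as had all 6 pairs of the 4 lower genes (median 0.30), and 14 of 16 pairs across directions had a negative r (median -0.22). Only 3 pairs passed an adjusted p of 0.05.

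Zfp365 took part in all 3. It correlated with Rap1gds1 at r = 0.51 (rho = 0.53, permutation p = 0.00264 and 0.00204, adjusted p = 0.0303 and 0.0571). With Mapk9 r was 0.50 (rho = 0.47, permutation p = 0.00325 and 0.0064, adjusted p = 0.0303 and 0.0576). With Pdrg1, which moved the other way between genotypes, r was -0.52 (rho = -0.46, permutation p = 0.00229 and 0.00823, adjusted p = 0.0303 and 0.0576). Without the 2 mice farthest from the median of the first gene of the pair, r was 0.52 for Zfp365 and Rap1gds1 (adjusted p = 0.0336), 0.37 for Mapk9 and Zfp365, and -0.37 for Pdrg1 and Zfp365, and the last 2 no longer passed and rest in part on those mice. By this measure 2 other pairs passed, Max with Zfp866 (r = 0.52, against 0.47 in all 32 mice) and Zfp280b with Tsnax (r = -0.52, against -0.45), each at an adjusted p of 0.0336 by permutation. Ranks gave 0 pairs past an adjusted p of 0.05.

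Without mouse 301, 0 of 28 pairs passed the adjusted threshold (smallest adjusted p = 0.0524). The r of Mapk9 and Zfp365 (0.51) and of Zfp365 and Rap1gds1 (0.50) was then close to that in all 32 mice, and the r of Pdrg1 and Zfp365 was -0.46. The pairs of the 4 higher genes were then positive in 4 of 6 (median 0.19), with Zfp866 and Pdrg1 at -0.20 in place of 0.06. Pairs of the 4 lower genes were still positive in 6 of 6 (median 0.30), and pairs across directions were negative in 13 of 16 (median -0.22). Centring on group and sex left 4 pairs past the threshold, and centring on group alone 3.

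In the 17 ctrl-PBS mice 0 of 28 pairs passed after adjustment and 5 had an unadjusted p under 0.05. There too the 4 lower genes were positively correlated in 6 of 6 pairs (median 0.42). Pairs of the 4 higher genes were positive in 1 of 6, and pairs across directions were positive in 10 of 16 (median 0.19). The largest r of the controls was that of Zfp280b and Mapk9 (0.57, rho = 0.59, permutation p = 0.0186 and 0.0146, adjusted p = 0.249 and 0.37), against -0.05 in rNLS8 mice. The difference between genotypes was not tested.

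**Figure D4:**
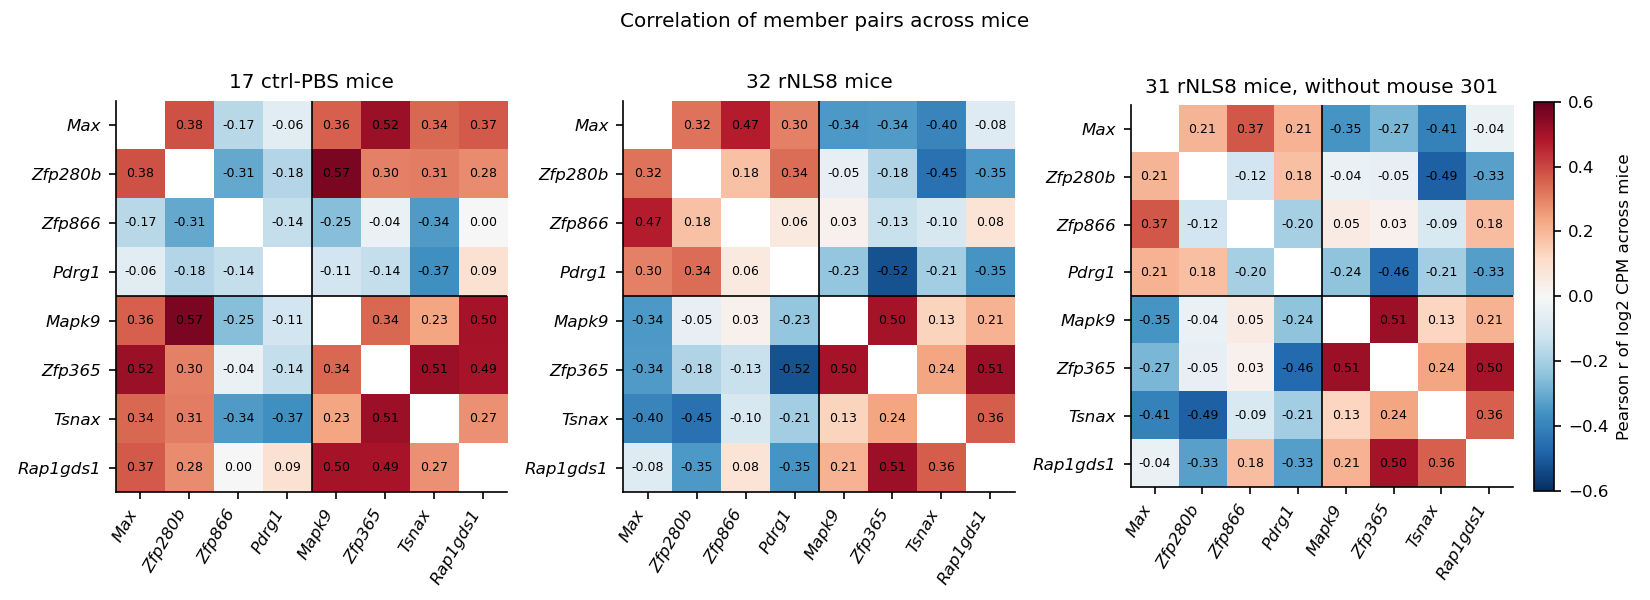
Pearson r of log2 CPM across mice for each pair of the 8 genes, in 17 ctrl-PBS mice (left), 32 rNLS8 mice (middle) and 31 rNLS8 mice without mouse 301 (right). Red is positive, blue negative, and black lines divide the 4 genes higher in rNLS8 mice from the 4 lower ones. The lower right block of each panel is positive throughout, while the upper left block of the rNLS8 mice is weaker without mouse 301 (median 0.31 and 0.19).

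Each gene was also correlated across rNLS8 mice with 6 genes chosen as readouts for this comparison. They were Tardbp, Gfap, the chemokine gene Cxcl10, the microglial protease inhibitor gene Cst7, the neurofilament light chain gene Nefl and the neuronal splicing factor gene Rbfox3. Of the 48 relations 9 passed an adjusted p of 0.05 (permutation test, adjusted over 48). Mapk9 rose with Tardbp (r = 0.60, rho = 0.48, adjusted p = 0.0103 for r) and fell with Cst7 (r = -0.53, rho = -0.46, adjusted p = 0.0236 for r). Both held without mouse 301, with r = 0.64 (adjusted p = 0.00528) and r = -0.54 (adjusted p = 0.023). Zfp280b rose with Rbfox3 (r = 0.49, rho = 0.47, adjusted p = 0.0254 for r), which also held without that mouse (r = 0.55, adjusted p = 0.023).

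The other 6 relations passed with mouse 301 and not without it, some of them with little change in r. Zfp866 with Gfap had r = 0.61 (rho = 0.49) with that mouse and 0.42 without it, and Max with Gfap had 0.57 (rho = 0.34) and 0.50. Pdrg1 with Nefl had r = -0.51 (rho = -0.38) with it and -0.39 without it. Zfp365 had -0.50 (rho = -0.45) and -0.45 with Cst7, and 0.49 (rho = 0.47) and 0.42 with Nefl. For Tsnax with Rbfox3, where the mouse was in the middle of both genes, r was -0.46 (rho = -0.46) with and without it, at adjusted p-values of 0.0455 and 0.0747 by permutation. By ranks 0 of 48 passed after adjustment. Without the 2 mice farthest from the median of the member, only Zfp365 with Nefl passed (r = 0.58, adjusted p = 0.0307 by permutation). The r moved most in Mapk9 with Tardbp (to 0.40), Max with Gfap (to 0.40) and Zfp866 with Gfap (to 0.45), so that these rest in part on the 2 mice. It stayed near the value in all mice in Zfp280b with Rbfox3 (0.51), Mapk9 with Cst7 (-0.52), Zfp365 with Cst7 (-0.48), Pdrg1 with Nefl (-0.45) and Tsnax with Rbfox3 (-0.44), where the adjusted p lay between 0.0653 and 0.0956. In the controls 0 of 48 passed (smallest adjusted p = 0.272). Across rNLS8 mice the summed microglia markers had r = -0.62 with Mapk9, 0.59 with Max and -0.48 with Zfp365, and the summed neuron markers -0.07, 0.12 and 0.45, given as descriptions of 32 bulk samples.

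Among all tested genes, those most like each gene across the 32 rNLS8 mice were found by Pearson r of log2 CPM, as a description without test. Mapk9 had the closest companions, with Cntnap5a (r = 0.85), Epha6 (0.85) and Negr1 (0.85), genes of neuronal surface proteins, and 6.85% of all genes had an absolute r over 0.5 with it. Zfp365 was most like Dlg3 (0.81), Wdr13 (0.74) and Rasgrf2 (0.74), where Dlg3 encodes a synaptic scaffold protein. Rap1gds1 was most like Birc2 (0.79), with Pja2 at 0.71, and Tsnax like Cep63 (0.65), Htatsf1 (0.62) and LOC105247294 (0.60).

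Of the higher genes, Max was most like Layn (r = 0.75), Slc29a3 (0.72) and Rexo2 (0.72). Zfp280b was closest to Phospho1 (0.75), Ogdh (0.70) and Dpp9 (0.70), and Zfp866 to Slc35e1 (0.72), Gm10033 (0.72) and Rhoa (0.71). Pdrg1 had Naa20 (0.75), Chga (0.68) and Nme1 (0.67) as its closest genes. None of the 8 appeared among the 3 genes most like another of the 8. In ctrl-PBS mice the same companions had r from -0.68 (Tsnax and Htatsf1) to 0.62 (Max and Rexo2). Over all genes the median absolute r in rNLS8 mice was 0.13 to 0.19, depending on the member.

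Partners and relatives of the genes were taken from lists by function. The MAX network was listed together with the related genes Mlx, Mlxip and Mlxipl, which are not partners of MAX itself. Of its 12 tested genes 4 rose and 3 fell in TDP-PBS relative to ctrl-PBS (median log2 fold change 0.11, against 0.00 over all tested genes). Among all genes 21.9% were higher and 21.6% lower. Mycl, a MYC paralog, rose the most (0.39, SE 0.09, adjusted p = 0.00032 in edgeR), and Mycn, another, fell the most (-0.42, SE 0.12, adjusted p = 0.00249). The repressor partner Mxi1 rose (0.26, adjusted p = 0.000141 in edgeR) and Mnt was at -0.02 (adjusted p = 0.773). All 12 had values that overlapped between the genotypes, as had all but 2.81% of the tested genes, so nothing particular to this list is read from that count.

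In the JNK pathway 5 of 27 tested partners were higher and 9 lower in TDP-PBS (median -0.08), against 21.9% and 21.6% of all tested genes. Mapk8, which encodes JNK1, was at a log2 fold change of -0.06 (SE 0.05, adjusted p = 0.333 in edgeR). Mapk10, the neuronal JNK3 gene, fell by 0.32 on the log2 scale (SE 0.05), from 403 ± 32.7 CPM (SD, n = 17) in controls to 313 ± 26.6 CPM (SD, n = 32) in rNLS8 mice. The largest rise was that of the stress-induced factor Atf3 (2.94, SE 0.23), from 0.464 ± 0.246 to 3.72 ± 1.49 CPM, and the largest fall that of the immediate-early factor Fos (-0.76, SE 0.31, adjusted p = 0.0465 in edgeR). Elk1, a transcription factor that JNK phosphorylates, was the only partner without overlap between genotypes, at 97.8 ± 6.86 and 138 ± 12.3 CPM. This 1 of 27 stands beside 2.81% of all tested genes, and nothing particular to these partners is read from it.

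Translin itself, Tsn, rose slightly in TDP-PBS (log2 fold change 0.12, SE 0.04, adjusted p = 0.00889 in edgeR) where Tsnax was lower. Of the 4 tested partners of TSNAX 1 was higher and 2 lower (median -0.07), where 21.9% of all tested genes were higher and 21.6% lower. The largest fall was that of Disc1, which encodes a scaffold protein that binds several cytoskeletal and synaptic partners (-0.69, SE 0.13, adjusted p = 9.83e-06 in edgeR), and C1d fell too (-0.27, adjusted p = 0.00179). Among 13 prefoldin-like and R2TP cochaperone genes listed with Pdrg1, 6 were higher and 1 lower (median 0.08). The prefoldin subunit gene Pfdn1 had the largest rise (0.28, SE 0.05) and Pih1d1 the only fall (-0.35, SE 0.06), both far smaller than the 1.68 of Pdrg1.

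Of 18 small GTPase genes listed with Rap1gds1, 3 were higher and 7 lower in TDP-PBS (median -0.03), against 21.9% and 21.6% of all tested genes. Rac2, a GTPase of blood and microglial cells, rose the most (0.88, SE 0.14), and Hras fell the most (-0.39, SE 0.04). Rac1 and Hras did not overlap between genotypes, with Rac1 at 295 ± 13.0 CPM in controls and 230.4 ± 12.6 CPM in rNLS8 mice. These 2 of 18 stand beside 2.81% of all tested genes, and no test of that share was run. Among the relatives of Zfp280b, Zfp280c (-0.01, adjusted p = 0.884 in edgeR) and Zfp280d (-0.03, adjusted p = 0.663) were not called, and of the 3 tested genes of that list only Pogz was, at -0.17. The counts in TDP-10+12 and TDP-15 differed from those in TDP-PBS by at most 2 genes per list and direction.

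Neighbouring genes were examined to see whether the difference between genotypes extended along the chromosome. The sites of the transgenes are not given in the sources used here. Within 1 Mb of the 8 genes 230 other genes were tested, of which 47.0%, 47.4% and 52.6% were called in TDP-PBS, TDP-10+12 and TDP-15, near the 43.5%, 40.8% and 46.9% of all genes. For Zfp866, which lies in a gene-dense region, 60.3%, 62.1% and 70.7% of 58 neighbours were called, and for Pdrg1 37.5%, 35.0% and 47.5% of 40. Genes near each other are not independent, and no test of these shares was run.

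Of the 230 neighbours 4 had no overlap between genotypes (1.74% against 2.81% of all tested genes). They were Akap5 near Max (log2 fold change -0.56 in TDP-PBS), Atp6v1b2 near Zfp866 (-0.49), and Scrt2 (0.99) and H13 (0.42) near Pdrg1. The nearest tested genes moved less than the members in all 16 cases. The members were picked for their separation, so nearly any gene beside them would move less, and nothing is read from this count. Some farther genes moved more than the member, such as Iqcn near Zfp866 (1.52 against 0.99) and Egr2 near Zfp365 (-1.49 against -1.30). Beside Mapk9, Gfpt2 was higher (0.63, SE 0.10) and Rasgef1c lower (-0.26, SE 0.07). Beside Tsnax, Disc1 fell as listed above and Gm46060 also fell (-0.79, SE 0.31, adjusted p = 0.0315 in edgeR). On the sides of Zfp866, Zfp963 (0.40, SE 0.12) and Atp13a1 (0.30, SE 0.04) rose. Prmt2 beside Zfp280b (-0.31), Rtkn2 beside Zfp365 (0.30) and Tspan5 beside Rap1gds1 (-0.18) were the others called. Fntb and 9530018F02Rik beside Max, Ttll9 and Xkr7 beside Pdrg1, and Gm867, Gm32364 and Gm2451 were not.

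**Figure D5:**
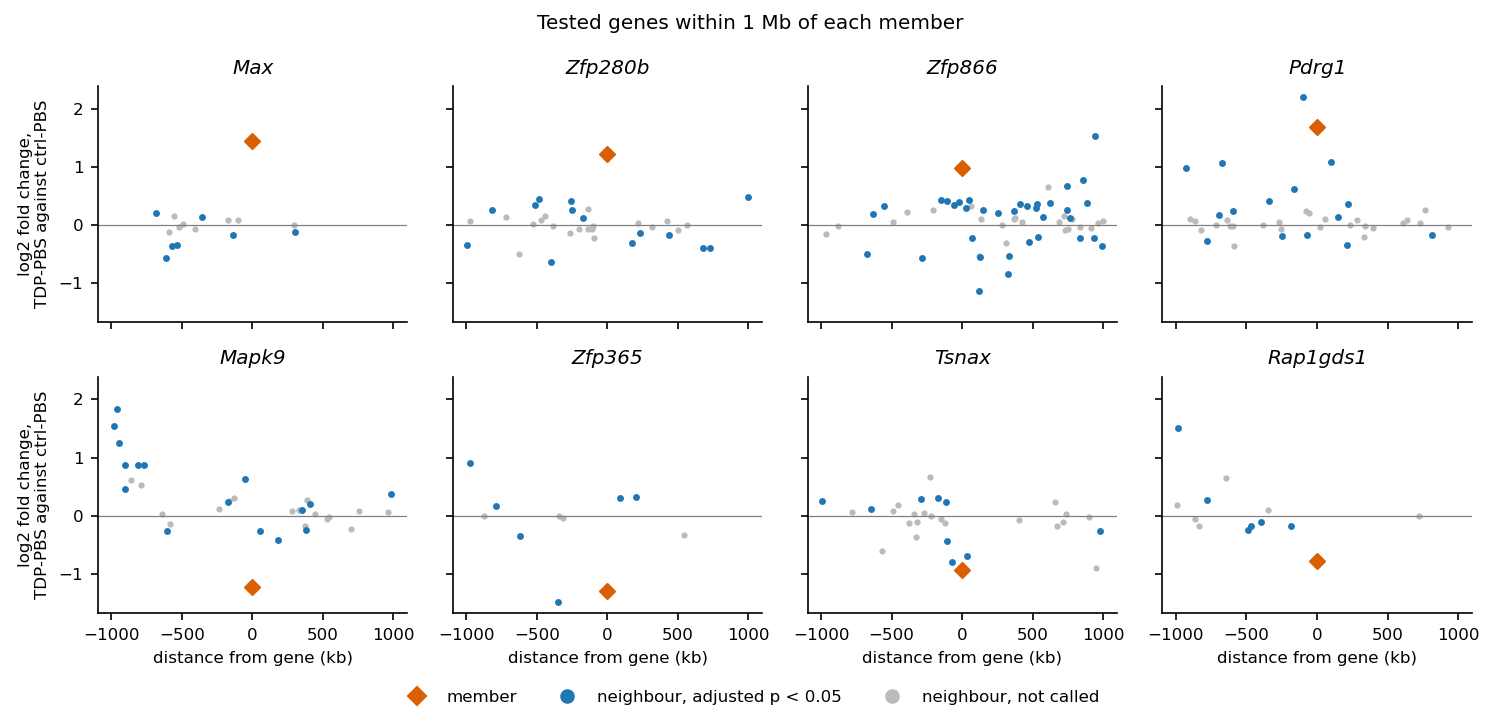
Log2 fold change in TDP-PBS against ctrl-PBS of every tested gene within 1 Mb of each of the 8 genes, by distance in kb. The orange diamond is the gene itself, blue points are neighbours with an adjusted p-value under 0.05 and grey points are the others. The genes next to each diamond lie closer to 0 than the diamond, which the choice of the 8 genes for their separation favours. The largest neighbour value is that of Mylk2 near Pdrg1 (2.20).

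Since TDP-43 binds UG-rich RNA, the longest coding transcript of each gene (GENCODE vM21) was searched for runs of alternating T and G. All 8 held TGTGTG at least 1 time, as did 74.9% of the transcripts of 14600 tested genes. The longest run was 16 bases in Zfp280b, a length reached by 5.34% of tested genes, 9 bases in Max and Pdrg1 (17.3%), 8 in Zfp365 and Rap1gds1, 7 in Mapk9 and Zfp866 and 6 in Tsnax. Introns, in which many binding sites of TDP-43 lie, were not searched, and these counts do not show binding. Max, Zfp866, Tsnax and Rap1gds1 overlap an annotated gene that the count table does not list (Gm47218, Gm20422, Gm45874 and Gm43162). Gm45874 lies on the strand opposite to Tsnax, and the strand setting of the counting is not given. The other 3 lie on the strand of the member, so that strand could not assign the reads of the overlap.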

How the data were processed

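The authors deposited raw counts per gene and mouse from neocortical mRNA libraries sequenced as paired-end reads. The submitters' processing notes name HISAT, HISAT2, Bowtie2, Bowtie and RSEM, without versions or roles, and the build mm10. The strand setting and the annotation used for counting are not given in the sources used here. Groups, sexes and genotypes came from the sample labels. Where nothing else is said, p-values measure the spread between separate mice.

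Low genes were removed by filterByExpr, given the groups, with its minimum count of 10 and minimum total of 15. TMM-scaled counts of the 49 mice went into 1 model of the 4 groups without covariates (glmQLFit and glmQLFTest of edgeR 4.0.16 in R 4.3.3), two-sided, with Benjamini-Hochberg adjustment over all 18220 tested genes and a threshold of 0.05. Sex was fitted beside group, and its interaction with genotype in a model of both factors. Log2 CPM used a prior count of 2. Standard errors were derived from the F statistic. The fit was tested on simulated counts for TDP-PBS against ctrl-PBS: of 18043 genes tested, 68% of 100 genes changed by 0.5 on the log2 scale and 84% of 100 changed by 1 were recovered, with 9 calls in error. Symbols were matched to RefSeq GRCm38.p6 (45252 of 45252), which also gave the gene positions and neighbour distances. Strands, overlapping genes and transcripts were taken from GENCODE vM21.

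The 8 genes, the partner and marker lists and the tests were chosen with earlier results of these data known. Genes named besides them are the 6 readout genes, the nearest tested gene on each side, the 3 genes most like each (1 of which is not reported here), the 5 with the widest gap, and from each partner list the largest called rise and fall and fixed paralogs. Others, such as Elk1, Rac1, Camkk2, Sult4a1, Prnp, Mylk2, Pogz, C1d and the neighbours without overlap, were added once their values were known. Alternatives were DESeq2 size factors, upper-quartile factors, other filters, sex as a covariate, DESeq2 1.42.0, limma-voom 3.58.1, fits of fewer mice, other prior counts and other forms of correlation. Figures were drawn with matplotlib 3.10.9. Intronic and protein sequences were not analysed here.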

Additional observations from a re-analysis of the deposited data

Results flagged for a closer look

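In the TDP-10+12 group, mouse 301 stood apart from the other 9 mice in 2 of the 8 genes by Dixon's criterion for a single extreme value, which chance meets in about 1 in 20 groups. The criterion was applied to each of the 8 genes in TDP-PBS and in TDP-10+12 only. Over that many comparisons some crossings by chance can be expected. Its Zfp280b level was 61.6 CPM, where the next rNLS8 mouse had 57.0 CPM, and its Zfp866 level was 41.0 CPM, where the next had 35.2 CPM. The same mouse had the highest Max and Pdrg1 levels of the 32 rNLS8 mice (215 and 49.2 CPM), the highest Tardbp, Prnp and Gfap, and the lowest Nefl (87.5 CPM against 98.5 to 152 CPM). Its Mapk9 and Tsnax levels were in the middle of the rNLS8 mice, at places 20 and 18 of 32 from the highest. The cause was not tested.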

How the results depend on the processing

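In every alternative fit all 8 genes kept their direction and an adjusted p-value under 0.05 against ctrl-PBS (216 values), and none was called between rNLS8 groups, by sex or by interaction (328 values, smallest adjusted p = 0.626). The number of related pairs was 3 as reported, 0 by ranks, 0 without mouse 301 of TDP-10+12 and 3 without the 2 farthest mice, of which 1 was among those reported, and that of relations with readout genes was 9 as reported, 0 by ranks, 1 without the 2 farthest mice and 3 without mouse 301. Leaving out mouse 301 and taking ratios to neuron markers were alternatives chosen after seeing the data. Ratios to the neuron markers raised the genes without overlap from 512 to 2228 and lowered the members without overlap from 8 to 6. Genes called by sex were 17, and 53 without a filter, 11 where 10 counts were required in all mice and 11 in the 27 PBS-treated mice. No gene was called between immunized and other rNLS8 groups as reported, against 1 without a filter in 2 of the comparisons and 2 in a fit of TDP-10+12 and TDP-15 alone. No paired analysis was possible because each mouse is a separate animal with its own number. Depth did not limit the 8 genes, whose lowest count was 150. With 10 to 12 mice in each rNLS8 group, differences between these groups are known only to within the intervals given.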
